A study of Mus musculus with 144 samples.

Results

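Metallothioneins bind zinc and copper inside the cell, and the SLC30 and SLC39 carriers move zinc and related metals across membranes. The genes described here were 6 members of this system, chosen by name, of 55359 genes counted in every library. They were the metallothioneins Mt1 and Mt2, the exporters Slc30a1 and Slc30a10, and the importers Slc39a4 and Slc39a14. The study treated primary hepatocytes, isolated from 28-day-old male C57BL/6NCrl wild-type (WT) mice or from PkmΔDRE mice (labelled DRE-null), with 10 nM TCDD or with DMSO vehicle, and sequenced RNA at 9 times, 2, 4, 8 and 12 h on the first day and then 24, 48, 72, 96 and 120 h. TCDD is a dioxin that activates the aryl hydrocarbon receptor (AHR). The PkmΔDRE mice lack a functional dioxin response element, the DNA motif the activated AHR binds, in the Pkm gene, which encodes pyruvate kinase M, in the whole body. The comparison asks how the response to TCDD depends on that element. All groups were plated on collagen, attached for 3 h in medium with 5% fetal bovine serum, and were then kept in medium with an insulin, transferrin and selenium premix and 100 nM dexamethasone, a synthetic glucocorticoid. There were 36 groups of 4 libraries. Replicates are numbered within a group in the order of deposit, and the numbers are used here only to name libraries. The labels do not say whether the 4 libraries of a group came from separate animals or separate isolations, so p-values measure only the spread between these libraries.

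Metallothionein genes are switched on in liver by zinc and cadmium through the metal-responsive transcription factor MTF1, and also by glucocorticoids and inflammatory signals. Of the exporters, Slc30a1 carries zinc out through the plasma membrane and is itself an MTF1 target, while Slc30a10 is chiefly a manganese exporter of liver and intestine. Of the importers, Slc39a4 is best known for taking up dietary zinc in the intestine, and Slc39a14 takes up zinc, manganese and iron into hepatocytes and is known as an acute phase gene of liver.

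The promoters of the members are shown because the metal response element (MRE) that MTF1 binds and the dioxin response element that AHR binds are both short motifs that can be looked for in them. The sequences are the 250 bases before the RefSeq start of each gene in GRCm38.p6, on the plus strand, which is the coding strand of these 4 genes. Capitals mark every match to the MRE core, searched on both strands as TGCACNC or TGCGCNC.
Mt1: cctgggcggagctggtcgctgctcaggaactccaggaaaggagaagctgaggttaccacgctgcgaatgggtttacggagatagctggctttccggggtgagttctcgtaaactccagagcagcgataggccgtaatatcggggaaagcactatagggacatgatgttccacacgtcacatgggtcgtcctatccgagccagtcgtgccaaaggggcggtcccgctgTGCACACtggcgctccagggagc
Mt2: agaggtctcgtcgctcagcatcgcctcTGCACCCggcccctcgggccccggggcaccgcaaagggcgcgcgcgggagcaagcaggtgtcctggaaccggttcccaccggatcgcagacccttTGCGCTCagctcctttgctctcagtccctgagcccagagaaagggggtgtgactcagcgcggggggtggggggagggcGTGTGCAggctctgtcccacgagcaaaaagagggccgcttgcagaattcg
Slc30a1: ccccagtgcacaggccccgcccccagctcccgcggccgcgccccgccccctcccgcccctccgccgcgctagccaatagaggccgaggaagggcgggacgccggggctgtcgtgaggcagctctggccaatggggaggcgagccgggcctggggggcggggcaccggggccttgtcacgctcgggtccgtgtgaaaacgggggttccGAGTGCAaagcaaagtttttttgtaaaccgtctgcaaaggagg
Slc30a10: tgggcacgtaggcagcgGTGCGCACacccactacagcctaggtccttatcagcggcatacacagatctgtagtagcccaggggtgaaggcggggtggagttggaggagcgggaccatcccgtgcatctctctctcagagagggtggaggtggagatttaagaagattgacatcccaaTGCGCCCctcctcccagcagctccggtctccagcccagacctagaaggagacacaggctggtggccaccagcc
The Mt1 window lies at chr8:94178839-94179088 and holds 1 MRE core match, 23 to 17 bases before the start. The Mt2 window lies at chr8:94172368-94172617 and holds 3 such matches, of which the farthest begins 223 and the nearest 50 bases before the start. The Slc30a1 window at chr1:191906531-191906780 holds 1, on the minus strand, 43 to 37 bases before the start, and the Slc30a10 window at chr1:185454598-185454847 holds 3, of which 2 overlap on opposite strands. Among 32851 RefSeq promoters of the same length 21.4% held at least 1 match and 5.17% held at least 2. The AHR core GCGTG, searched on both strands and not marked in capitals, was found once each in the Mt1, Mt2 and Slc30a1 windows, not in the Slc30a10 window, and in 28.2% of all promoters. In Mt2 the GCGTG match, 52 to 48 bases before the start, overlaps the nearest MRE core. A match is a string of letters and not a shown binding site. Only the 250 bases before 1 annotated start of each gene were searched. Matches beyond that start or at other starts are not counted, so these numbers do not rank the genes by their MREs. Slc39a4 and Slc39a14 are named without a promoter.

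In the GENCODE annotation of GRCm38, Mt2 (chr8:94172664-94173568) and Mt1 (chr8:94179082-94180327) are neighbours on the plus strand of chromosome 8, 5514 bases apart. Slc30a1 (chr1:191906767-191913247) and Slc30a10 (chr1:185454848-185468762) lie on the plus strand of chromosome 1. Slc39a4 (chr15:76612383-76617384) and Slc39a14 (chr14:70303469-70351425) lie on the minus strand of their chromosomes. Genes antisense to Mt2 (Gm45774) and to Slc30a1 (1700034H15Rik), and a long noncoding RNA on the minus strand at Slc30a10 (Gm2061), share exonic positions with those members. The library kit does not keep the strand, so reads of a member and of its antisense partner could not be told apart there.

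Between 13588848 and 30719161 read pairs per library fell on genes (median 18011825). Vehicle replicate 4 at 4 h and vehicle replicate 4 at 96 h, both of the PkmΔDRE label, stood apart. Their profiles over 9567 genes were closest to an hour 6 steps from the labelled one, while 110 libraries were closest to their own hour, 29 were 1 step away and 3 were 2 steps away. Tests were therefore also run without these 2 displaced libraries, and the values without them are given for some results only. The AHR target Cyp1a1 went against the treatment label in 4 libraries labelled WT, at 1.15 and 29.2 CPM (the count scaled to the size of the library) in TCDD replicate 4 at 2 h and at 72 h, and at 3285 and 1717 CPM in vehicle replicate 1 at 48 h and replicate 3 at 96 h. Pkm levels did not overlap between vehicle (37.8 to 81.5 CPM) and TCDD (109.2 to 169.0 CPM) at 8 h in libraries labelled PkmΔDRE. They overlapped in libraries labelled WT (41.8 to 80.8 against 29.3 to 62.6 CPM), and neither difference was called. Under the PkmΔDRE label they were also apart, uncalled, at 12 h (37.0 to 52.4 and 93.7 to 201.0 CPM) and 48 h (225.1 to 567.9 and 754.6 to 1079 CPM). The paper reports by qRT-PCR that TCDD induced the Pkm2 isoform in WT hepatocytes, and that this induction was absent in PkmΔDRE hepatocytes. With the WT results it also describes a rise of Pkm as a whole in its RNA-Seq between 8 and 24 h. Both place the rise under the other label than the levels here. The counts here are of the whole Pkm gene and do not separate its isoforms. By another test it reports more changed genes at 8 h in PkmΔDRE hepatocytes, where 0.106% were called here against 37.4% under the WT label. Whether the labels are right was not tested. The groups are named by their labels throughout. The hepatocyte markers Alb, Ttr, Apoa1, Cps1, Hnf4a and Serpina1c were found in every library.

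In the unstranded count Mt1 was the member with the most RNA, and its level spanned 184.3 to 10128 CPM over all libraries. In freshly attached vehicle hepatocytes (WT label, 2 h) it ranked 35th of all genes by mean CPM, and per kb of exon it stood at 4388 CPM, against 210.5 for Slc39a14, 68.5 for Slc39a4, 10.7 for Slc30a1 and 9.58 for Slc30a10. At 120 h the order per kb was Mt1 at 309.0, Slc39a4 at 77.2, Slc39a14 at 10.6, Slc30a1 at 3.51 and Slc30a10 at 0.0988 CPM. Slc39a14 and Slc39a4 thus changed places. The annotated exons of Mt1 join into 1 block of 1246 bases that covers the whole gene, so its values per kb may be too low. Mt2 has no place in this order, because its level depended on the way of counting, and as the sum of the strand columns it was at 5389 ± 719 CPM (SD, n = 4) beside 5468 ± 823 CPM for Mt1 in the same 2 h libraries. Slc30a10 was below 1 CPM in 68 libraries and listed at 0 in 6 of them. Spread within groups was lowest for Slc39a14 and highest for Slc30a10, with median coefficients of variation of 15.5% and 42.6% over the 36 groups. The plot of all libraries by hour shows each member's level.

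**Figure D1:**
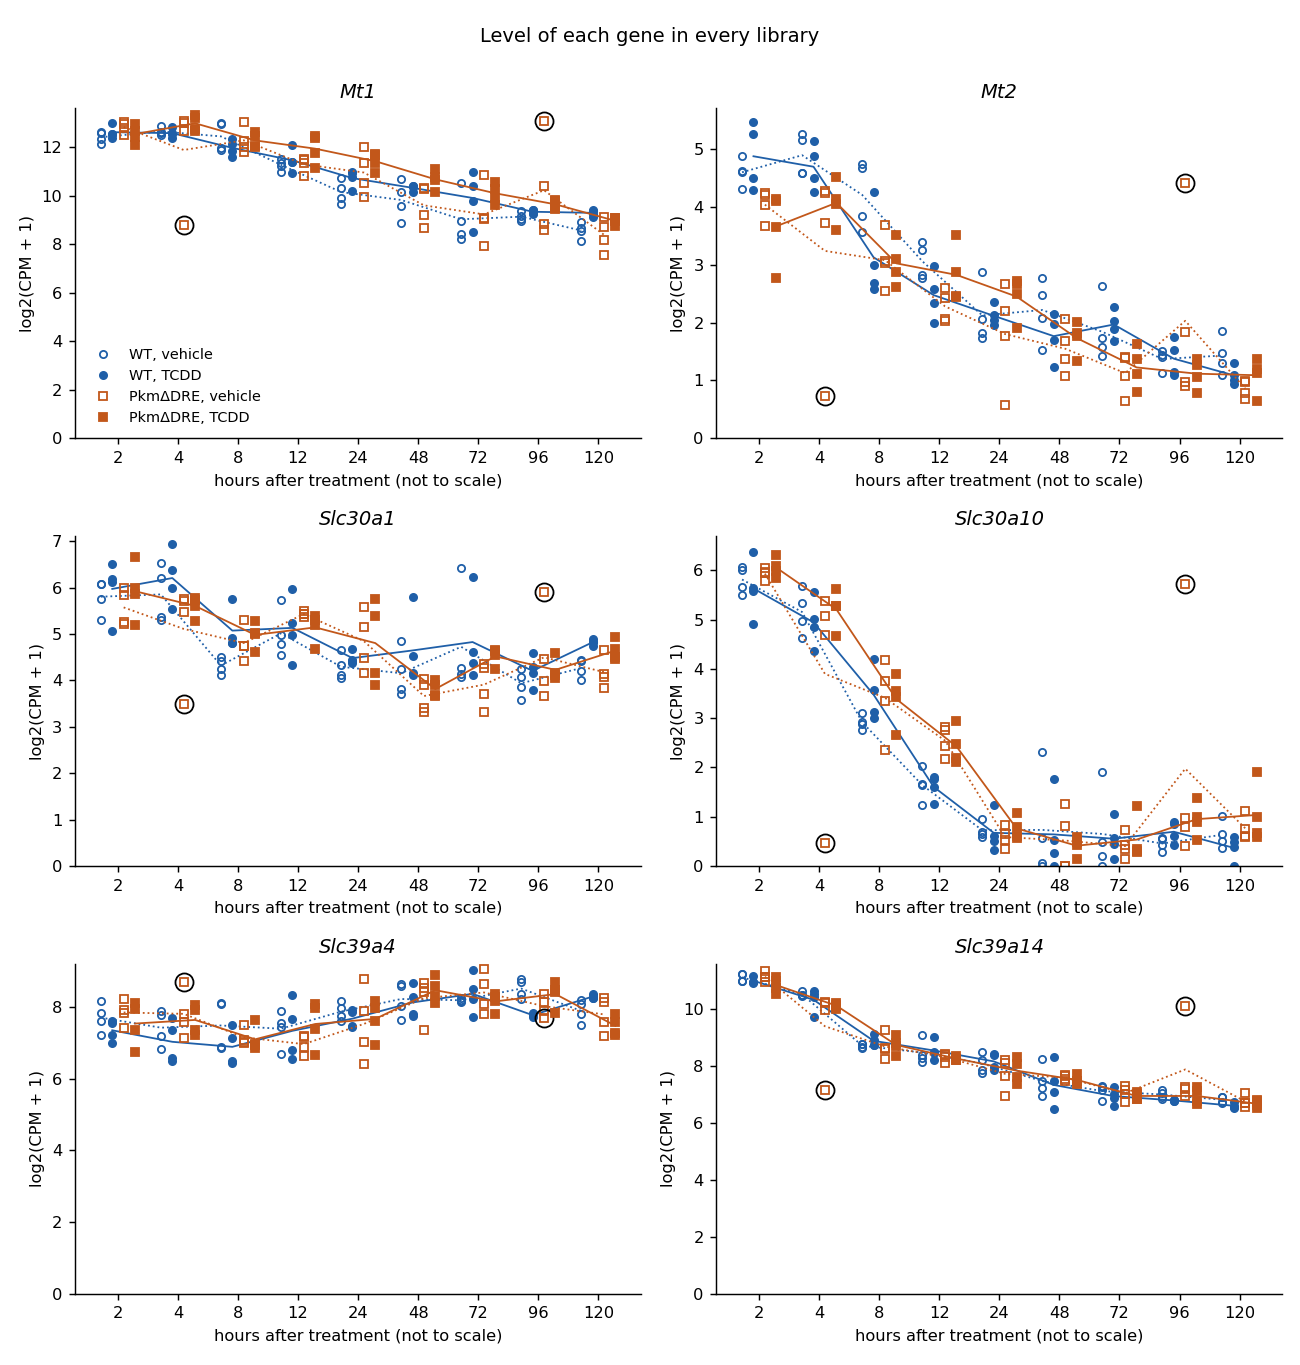
Level of each member as log2(CPM + 1) in every library against hours in culture (2 to 120 h), with open symbols for vehicle, filled symbols for TCDD, blue circles for the WT label and orange squares for the PkmΔDRE label. Lines join group means and rings mark the 2 displaced vehicle libraries. Every member but Slc39a4 falls from 2 h to 120 h, and the ringed libraries lie far from the others of their groups in Mt1, Slc30a10 and Slc39a14.

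The level of Mt2 depended on how overlapping reads were counted. In the counts made without regard to strand, a pair that overlaps both Mt2 and its antisense partner Gm45774 is assigned to neither, and Mt2 kept 17079 counts over all libraries. In the 2 columns that count each strand on its own, the same positions gave 5006446 counts for Mt2 and 4992721 for Gm45774, since an unstranded kit puts reads from either gene in both columns. The unstranded count therefore kept 0.0689 to 0.739% of the strand sum (median 0.299%). That share was 0.1704 to 0.739% (median 0.416%) in libraries labelled WT and 0.0689 to 0.436% (median 0.257%) in those labelled PkmΔDRE. The strand sum is the sum of Mt2 and Gm45774 reads, and the files do not separate them. For Slc30a1 the unstranded count kept a median of 72.8% of the strand sum, for Slc30a10 78.5%, and for Mt1, Slc39a4 and Slc39a14 at least 99.9% in every library. Tests below use the unstranded counts, and the strand sum is given beside the tests of Mt2.

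**Figure D2:**
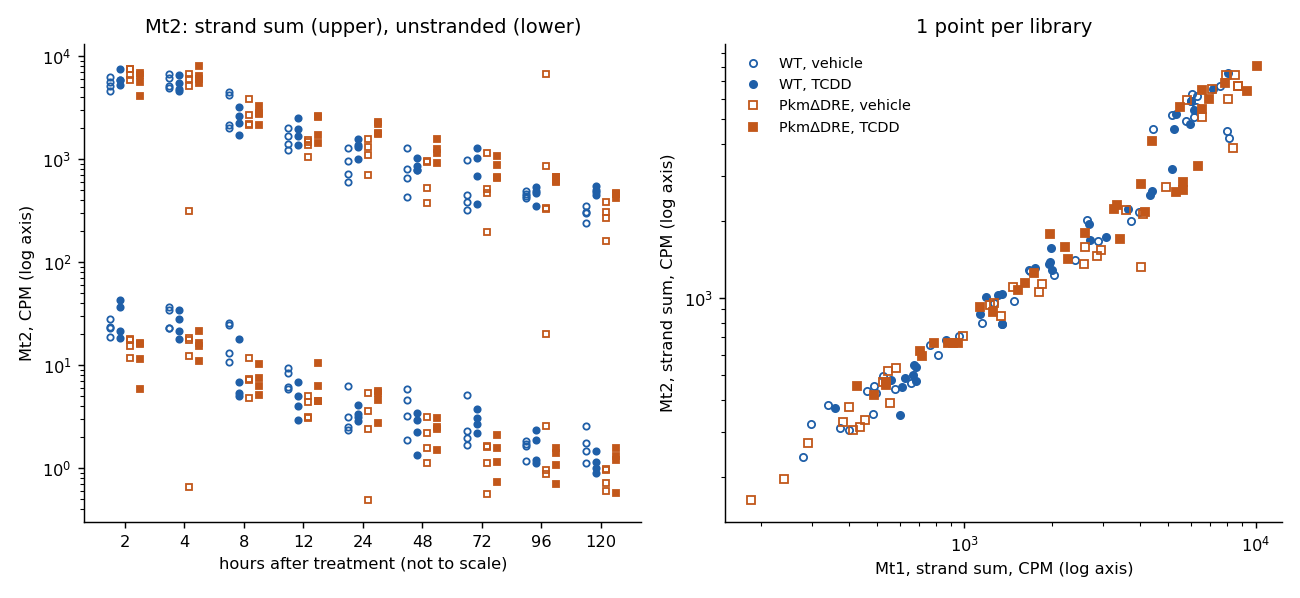
Left, Mt2 in CPM on a log axis in every library against hours in culture, as the strand sum (upper points) and as the unstranded count (lower points). Right, the Mt2 strand sum against Mt1 in CPM, both axes log, 1 point per library. The upper and lower clouds are separated by more than 100-fold in every library, and on the right the libraries follow a line, with Mt1 at 0.891 to 3.07 times the Mt2 strand sum.

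Time in culture was the condition with which the members varied most. In vehicle libraries Mt1, Slc30a10 and Slc39a14 were lower at 120 h than at 2 h under both labels, with log2 changes of -4.06 to -6.82, Slc30a1 was lower with log2 changes of -1.65 and -1.84, and Slc39a4 did not pass the test at any hour. Mt2 was lower as well on either way of counting. Each of 8, 24, 48 and 120 h was compared with 2 h within each label in 1 edgeR quasi-likelihood fit of all 72 vehicle libraries, and a gene was called at a Benjamini-Hochberg adjusted p below 0.05 over all genes tested and a fold of at least 1.5. These 4 comparisons of a label share its 2 h libraries. Of 48 tests of members 33 were called, all lower, 36 had an unadjusted p below 0.05, and the median log2 change of the members was -2.46. Per comparison 30.2 to 59.5% of all tested genes had an edgeR unadjusted p below 0.05. In the WT label the share of all tested genes called in either direction was 22.8, 37.8, 44.4 and 52.3% for these hours in turn, and in the PkmΔDRE label 16.5, 38.2, 41.7 and 52.8%. The median log2 change of all tested genes at 120 h was 0.19 and 0.23 under the WT and PkmΔDRE labels.

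Mt1, which buffers zinc and copper, was not called at 8 h and was lower at 24, 48 and 120 h. In vehicle libraries labelled WT it stood at 5161, 6039, 4447 and 6223 CPM at 2 h, at 7949, 8086, 3974 and 3724 CPM at 8 h and at 279, 486, 374 and 400.4 CPM at 120 h. The 8 h libraries straddle the 2 h libraries, and every 120 h library lies far below both. In the PkmΔDRE label Mt1 was at 8481, 7097, 7941 and 5809.7 CPM at 2 h and 289, 184, 415 and 556 CPM at 120 h. The log2 change from 2 to 120 h was -4.06 (SE 0.69, adjusted p = 2.28e-06) under the WT label and -4.54 (SE 0.71, adjusted p = 3.60e-07) under the PkmΔDRE label. At 8 h it was 0.13 (SE 0.61, adjusted p = 0.916) and -0.49 (SE 0.61, adjusted p = 0.639), and at 24 h -2.35 (SE 0.64, adjusted p = 0.00277) and -1.90 (SE 0.63, adjusted p = 0.0136). The last of these did not pass without vehicle replicate 2 (-1.69, edgeR adjusted p = 0.0507) or replicate 3 (-1.59, 0.0631) of its 24 h group. The group means fell from a highest value of 6427 CPM at 4 h to 385.0 CPM at 120 h in the WT label, a ratio of 16.7, and by a ratio of 20.3 in the PkmΔDRE label (21.5 without the displaced libraries). Only 3 of the 8 pairs of neighbouring hours in the order of WT means had libraries that did not overlap, so the steps between most hours were within the spread.

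Mt2, the second hepatic metallothionein, was lower late in culture on both ways of counting. As the strand sum it was at 5389 ± 719 CPM (SD, n = 4) at 2 h and 300.2 ± 46.4 CPM at 120 h in the WT label, and at 6826 ± 739.8 and 281 ± 93.3 CPM in the PkmΔDRE label. The log2 change in the strand sum from 2 to 120 h was -4.35 (SE 0.63, adjusted p = 9.98e-08) under the WT label and -4.75 (SE 0.65, adjusted p = 1.84e-08) under the PkmΔDRE label, beside -3.97 and -4.44 in the unstranded count. In the unstranded counts Mt1 and Mt2 together took 0.360% of all read pairs on genes at 2 h and 0.0521% at 120 h in vehicle libraries labelled WT.

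Slc30a10 was the member that fell furthest. It stood at 49.8, 44.2, 66.4 and 63.2 CPM at 2 h and at 0.414, 1.02, 0.296 and 0.577 CPM at 120 h in vehicle libraries labelled WT. In the PkmΔDRE label it was at 54.2, 60.2, 61.3 and 64.8 and 0.533, 1.16, 0.681 and 0.496 CPM. The ranges at the ends of the course are far apart under both labels. The log2 change from 2 to 24 h was already -6.51 and -7.01, and from 2 to 120 h -6.82 (SE 1.19, adjusted p = 3.84e-06) and -6.56 (SE 1.17, adjusted p = 5.54e-06). At 8 h it was -3.07 (SE 0.98, adjusted p = 0.0173) under the WT label, which passed, and -2.49 (SE 0.96, adjusted p = 0.0617) under the PkmΔDRE label, which did not.

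Slc30a1, the plasma membrane zinc exporter, changed less. Its vehicle level was 56.2 ± 13.5 CPM (SD, n = 4) at 2 h and 18.4 ± 2.59 CPM at 120 h under the WT label, and 47.98 ± 13.3 and 17.5 ± 4.71 CPM under the PkmΔDRE label. The log2 change was -1.84 (SE 0.42, adjusted p = 2.78e-04) and -1.65 (SE 0.42, adjusted p = 9.05e-04). At 8 h the log2 change was -1.54 (SE 0.42, adjusted p = 0.00484) in the WT label and -0.80 (SE 0.41, adjusted p = 0.182) in the PkmΔDRE label, and only the first passed. Whether the labels differ in that early step was not tested.

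Slc39a14, the hepatocyte importer, fell early and at every later hour tested. Its vehicle level was 2031, 2045, 2395 and 2414 CPM at 2 h and 105.1, 118.9, 102.4 and 119.98 CPM at 120 h under the WT label. Under the PkmΔDRE label the values were 1997, 2212, 2603 and 2216 and 131.3, 102.9, 102.3 and 93.8 CPM. The log2 change from 2 h was -2.39 (SE 0.42, adjusted p = 1.46e-05) and -2.42 (SE 0.42, adjusted p = 1.82e-05) at 8 h, and -4.55 (SE 0.46, adjusted p = 2.05e-11) and -4.59 (SE 0.46, adjusted p = 1.48e-11) at 120 h. It was the member called in all 8 comparisons.

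Slc39a4 was called in none of the 8. Its vehicle mean under the WT label was lowest at 12 h (174.3 CPM) and highest at 96 h (368.1 CPM), with a ratio of 2.11, and no pair of neighbouring hours in that order was free of overlap. The log2 change from 2 to 120 h was -0.07 (SE 0.34, adjusted p = 0.870) and -0.22 (SE 0.34, adjusted p = 0.590). In the PkmΔDRE label the vehicle mean was lowest at 12 h (125.1 CPM) and highest at 72 h (357.2 CPM).

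Markers of cell types moved with these changes. The 7 hepatocyte markers found in the files summed to 118581 to 161376 CPM at 2 h and 2891 to 16654 CPM at 120 h in vehicle libraries labelled WT, and 43 of their 56 tests against 2 h were called, all lower. Kupffer cell markers went from 138.6 to 217.7 CPM down to 15.8 to 60.2 CPM (23 of 48 tests lower, 0 higher) and endothelial markers from 145.9 to 285.8 CPM down to 23.3 to 46.7 CPM (25 of 48 lower, 0 higher). Cholangiocyte markers went from 55.7 to 140.8 CPM up to 580.6 to 1069 CPM (16 of 40 higher, 8 lower), and stellate cell and fibroblast markers had 10 of 48 tests higher and 9 lower. Among these lists Adgre1, Clec4f, Marco and Vsig4 (Kupffer cells), Kdr, Clec4g and Tek (endothelium), Krt7, Krt19 and Epcam (cholangiocytes) and Col1a1, Des, Lrat and Pdgfrb (stellate cells and fibroblasts) were at 0 in at least 1 library of the series. Their part in the members' changes was not tested. In bulk RNA fewer cells of a type and less RNA per cell cannot be told apart.

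**Figure D3:**
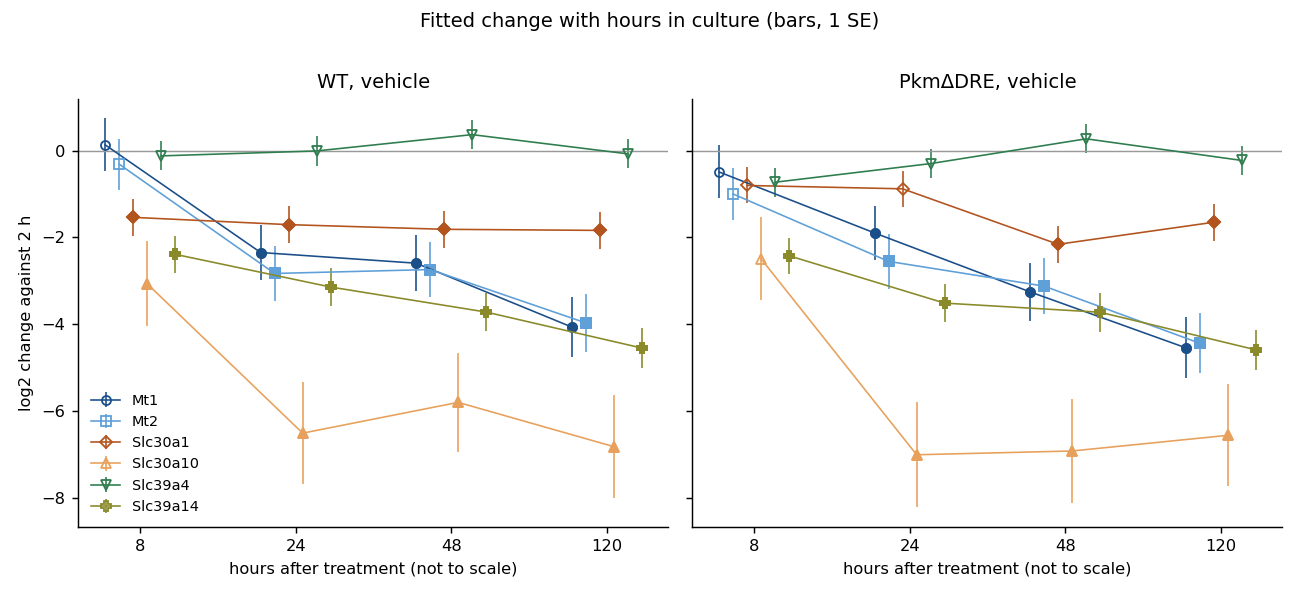
Fitted log2 change of each member at 8, 24, 48 and 120 h against 2 h in vehicle libraries, with bars of ± 1 SE, for the WT label (blue circles) and the PkmΔDRE label (orange squares). Filled points passed the test. Slc39a14 is filled at all 4 hours under both labels and Slc39a4 at none, and Slc30a10 reaches -6.51 and -7.01 at 24 h.

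TCDD against vehicle at the same hour changed few members. Slc30a1 was higher and Mt2 (unstranded count) lower at 8 h, and Slc39a4 was lower at 96 h, all under the WT label. Each comparison was an edgeR quasi-likelihood fit of 8 libraries, and no member was called in those of the PkmΔDRE label. None of the 3 calls passed in 1 fit per label with 1 surrogate variable, an estimated unwanted factor, where the edgeR adjusted p was 0.698, 0.576 and 0.639 in turn. Over 18 comparisons of the 6 members 3 tests were called (1 higher and 2 lower) and 13 had an unadjusted p below 0.05. Per comparison 1.29 to 54.2% of all tested genes had an edgeR unadjusted p below 0.05. That share was largest at 8 h (54.2%) and 96 h (44.3%) under the WT label. The median log2 change of the members over the tests that passed the filter on low counts was 0.03, and the median of its absolute value was 0.26 beside a median SE of 0.30. Slc30a10 did not pass that filter in 5 comparisons, at 48, 72 and 96 h under the WT label and at 48 and 72 h under the PkmΔDRE label.

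Under the WT label 0% of all tested genes were called at 2 or 4 h, 37.4% at 8 h, 0.0321% after 12 h and 0.373% after 24 h. The share was 0.00763% at 48 h, 0% again at 72 h, 15.1% after 96 h and 1.46% at the last hour. Under the PkmΔDRE label it was 0% at 2 or 4 h, 0.106% at 8 h, 0.024% after 12 h and 0.016% after 24 h. It then was 0.404% at 48 h, 1.13% at 72 h, 0.0793% after 96 h and 0.633% at the last hour. The 3 members called fell in the 2 comparisons where many genes were called, with 2 of 6 members called at 8 h and 1 of 5 tested at 96 h. In the unstranded counts members' groups did not overlap in 6 cases over the 18 comparisons, 4 with TCDD higher and 2 with TCDD lower, at 8, 96 or 120 h under the WT label. As the strand sum Mt2 at 120 h joined these, and under the PkmΔDRE label Mt2 at 24 and 120 h (higher) and Slc30a1 at 12 h (lower) did not overlap either. The share of all genes whose groups did not overlap was not computed, so these counts do not set the members apart from other genes.

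At 8 h under the WT label Slc30a1 stood at 18.003, 21.6, 16.3 and 20.5 CPM in vehicle and at 29.2, 27.1, 53.2 and 26.99 CPM in TCDD libraries. All 4 TCDD libraries lay above all 4 vehicle libraries, and TCDD replicate 3 was well above the others. The log2 change was 0.80 (SE 0.24, adjusted p = 0.0152), and without that library it was 0.51 (edgeR adjusted p = 0.0433), below the 1.5-fold threshold. As the strand sum the log2 change was 0.73 (SE 0.21, adjusted p = 0.0140), and in 1 fit of all 72 libraries of the label it was 0.69 (SE 0.41, adjusted p = 0.182), which did not pass.

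Mt2 in the unstranded count was at 25.7, 24.4, 13.3 and 10.8 CPM in vehicle and 17.96, 6.93, 4.99 and 5.43 CPM in TCDD libraries at 8 h under the WT label. The groups overlap through TCDD replicate 1, and the log2 change was -1.12 (SE 0.42, adjusted p = 0.0449). Leaving out 1 library at a time ended the call in 5 of 8 fits, with edgeR adjusted p up to 0.134 (vehicle replicates 1 and 2 and TCDD replicates 2, 3 and 4). The share of the strand sum that the unstranded count kept was 0.542 to 0.616% in these vehicle libraries and 0.224 to 0.563% in the TCDD libraries. As the strand sum Mt2 was at 4501, 4222, 2154 and 1997 CPM in vehicle and 3192, 2612, 2231 and 1728 CPM in TCDD libraries, which overlap, and the log2 change was -0.41 (SE 0.28, adjusted p = 0.246). Its neighbour Mt1 stood at 7949, 8086, 3974 and 3724 CPM in vehicle and 5172, 4414, 3658 and 3059.7 CPM in TCDD libraries, with a log2 change of -0.58 (SE 0.28, adjusted p = 0.102). Neither Mt1 nor the strand sum of Mt2 passed.

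The other members at 8 h under the WT label were not called. The log2 change was 0.68 (SE 0.30, adjusted p = 0.0778) for Slc30a10, -0.70 (SE 0.33, adjusted p = 0.0967) for Slc39a4 and 0.14 (SE 0.13, adjusted p = 0.384) for Slc39a14. Slc30a10 passed without TCDD replicate 1 or 4 (0.80 and 0.84) and Slc39a4 without vehicle replicate 3 or 4 (-0.89 each). Library measures differed between these groups. Read pairs on no gene made up 4.89 to 5.99% in vehicle and 8.36 to 21.9% in TCDD libraries, with TCDD replicate 1 the highest. Summed Kupffer cell markers were at 127.5 to 174.3 CPM in vehicle and 57.5 to 104.03 CPM in TCDD libraries, with 3 of 6 markers called lower. Summed hepatocyte markers were at 71635 to 84228 and 62058 to 69402 CPM, with 4 of 7 called lower and 1 higher. Adjusted for that share, the log2 change of Slc30a1 was 1.01 (SE 0.29, adjusted p = 0.0157) and that of Slc30a10 1.02 (SE 0.35, adjusted p = 0.0356). The part of the cell markers in these results was not tested.

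**Figure D4:**
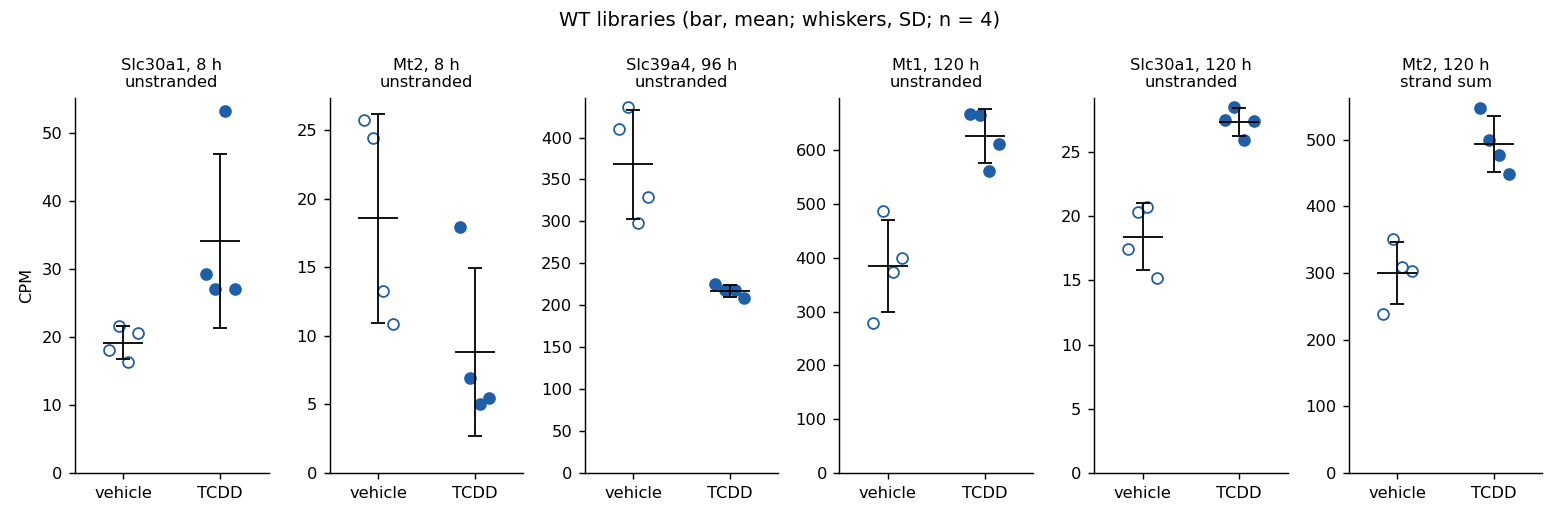
CPM of single libraries labelled WT in vehicle (open) and TCDD (filled), with mean ± SD (n = 4), for Slc30a1 and Mt2 at 8 h, Slc39a4 at 96 h, and Mt1, Slc30a1 and Mt2 (strand sum) at 120 h, with every axis starting at 0. The groups do not overlap in any panel but Mt2 at 8 h, where TCDD replicate 1 lies among the vehicle libraries.

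At 96 h Slc39a4 stood at 409.6, 436, 298 and 329 CPM in vehicle and 225, 218, 218 and 208 CPM in TCDD libraries labelled WT. Every TCDD library was below every vehicle library, and the TCDD libraries lay close together. The log2 change was -0.71 (SE 0.13, adjusted p = 0.00224), and leaving out 1 library at a time kept the call in 8 of 8 fits. In 1 fit of all 72 libraries of the label the log2 change was -0.75 (SE 0.32, adjusted p = 0.283), which did not pass. Slc39a14 was at 120.7, 114.5, 141.3 and 131.6 CPM and 107.1, 111.8, 107.5 and 112.01 CPM. These groups do not overlap either, but the log2 change of -0.15 (SE 0.07, adjusted p = 0.136) did not pass. Mt1, at 524, 498, 655 and 575 and 602, 679, 679 and 623 CPM, had a log2 change of 0.26 (SE 0.09, adjusted p = 0.0401), below the 1.5-fold threshold. Vehicle replicate 3 here carried 1717 CPM of Cyp1a1. Read pairs on no gene made up 6.21 to 9.40% in these vehicle and 9.08 to 11.8% in the TCDD libraries, and unmapped pairs were highest in TCDD replicate 1, at 11.4%. That library also had 63.3% of its stranded counts on 1 strand, against 50.4 to 51.5% in the other 7. Cholangiocyte markers summed to 609.0 to 1331 CPM in vehicle and 372.0 to 781.4 CPM in TCDD libraries, with Krt19 and Krt7 called lower. Endothelial Lyve1 and Pecam1 were called lower as well, while Stab2, Kdr, Clec4g and Tek were not. Their means in vehicle and TCDD libraries were 16.3 and 15.6 CPM (Stab2), 5.57 and 5.35 CPM (Kdr), 0.544 and 0.320 CPM (Clec4g) and 1.07 and 1.49 CPM (Tek). In this comparison 15.1% of all tested genes were called. The part of these cells, the unmapped pairs and the strand share in the change of Slc39a4 was not tested, and adjusted for the share on no gene it was -0.92 (SE 0.15, adjusted p = 0.00498).

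At 120 h Mt1 and Slc30a1 lay above vehicle in all TCDD libraries labelled WT without passing the test, and Mt2 depended on the way of counting. Mt1 stood at 279, 486, 374 and 400.4 CPM in vehicle and 668, 666, 561 and 611 CPM in TCDD libraries. The groups do not overlap, and the log2 change was 0.70 (SE 0.17, adjusted p = 0.0687). Slc30a1 was at 17.4, 20.3, 20.7 and 15.2 CPM and 27.5, 28.5, 25.9 and 27.4 CPM, again without overlap, with a log2 change of 0.57 (SE 0.13, adjusted p = 0.0595). Without vehicle replicate 2 both passed (edgeR adjusted p = 0.0224 for Mt1 and 0.0384 for Slc30a1), as they did without TCDD replicate 3 (0.0331 and 0.0282). Counted as the strand sum, Mt2 was at 238, 351, 309 and 303 CPM in vehicle and 547, 500.02, 477 and 448 CPM in TCDD libraries. On that count Mt2 and Slc30a1 passed, with log2 changes of 0.72 (SE 0.13, adjusted p = 0.0293) for Mt2 and 0.61 (SE 0.12, adjusted p = 0.0393) for Slc30a1, where 1.54% of all tested genes were called. In the unstranded count Mt2 went the other way, with a log2 change of -0.61 (SE 0.33, adjusted p = 0.398), while the share of the strand sum it kept was 0.477 to 0.739% in vehicle and 0.203 to 0.295% in TCDD libraries.

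Slc39a4 was also without overlap at 120 h under the WT label, at 289, 221, 269 and 179 CPM in vehicle and 301, 327, 300.2 and 318 CPM in TCDD libraries, with a log2 change of 0.38 (SE 0.15, adjusted p = 0.230). That is the opposite direction from 96 h. Endothelial markers summed to 23.3 to 46.7 CPM in vehicle and 50.5 to 58.6 CPM in TCDD libraries. Stellate cell and fibroblast markers summed to 14.5 to 93.3 and 103.7 to 159.8 CPM, and of these Reln was called higher. Over the 18 comparisons with TCDD Reln was the only 1 of these 6 markers called, in 6 of 75 tests, all higher. The sum includes Reln, so it cannot stand for the number of these cells. The part of these cells was not tested.

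Under the PkmΔDRE label the largest fitted changes of members lay at 96 h and came with the displaced library. That library, vehicle replicate 4, held 8740 CPM of Mt1, 51.6 CPM of Slc30a10 and 1108 CPM of Slc39a14, where the other 3 vehicle libraries held 381.1 to 1331, 0.320 to 0.969 and 123.05 to 152.6 CPM. With it the log2 change was -1.91 (SE 0.98, adjusted p = 0.699) for Mt1, -3.92 (SE 1.60, adjusted p = 0.671) for Slc30a10 and -1.75 (SE 0.77, adjusted p = 0.687) for Slc39a14. Without it the changes were 0.12 (SE 0.36, adjusted p = 0.955), 0.48 (SE 0.55, adjusted p = 0.844) and -0.21 (SE 0.18, adjusted p = 0.755), and 2.25% of all tested genes were called in that fit. In 1 fit of all 72 libraries of the label, which keeps the displaced library, 3 members passed, with log2 changes of -2.40 (SE 0.64, adjusted p = 0.0177) for Mt2 in the unstranded count, -3.83 (SE 0.91, adjusted p = 0.00603) for Slc30a10 and -1.69 (SE 0.40, adjusted p = 0.00636) for Slc39a14. Mt1 passed as well with 1 surrogate variable (-1.79, edgeR adjusted p = 0.0335). Library measures differed under this label as well. Unmapped pairs made up 6.39 to 7.08% in vehicle and 2.77 to 7.59% in TCDD libraries at 24 h. They made up 4.30 to 11.1% and 1.96 to 2.90% at 96 h, and 4.06 to 6.68% and 2.20 to 2.48% at 120 h. Their part in the members' levels was not tested. At 120 h the strand sum of Mt2 under the PkmΔDRE label was 271, 162, 304 and 387 CPM in vehicle and 454, 418, 458 and 469.9 CPM in TCDD libraries. The groups do not overlap, and the log2 change of 0.66 (SE 0.23, adjusted p = 0.401) did not pass. At 24 h the strand sum was 1321, 1103, 708 and 1576 CPM in vehicle and 1789.7, 1771, 2294 and 2214 CPM in TCDD libraries, also without overlap, with a log2 change of 0.67 (SE 0.31, adjusted p = 1).

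Over the 9 hours the fitted change of Slc30a1 was above 0 at 8 hours under the WT label and at 7 under the PkmΔDRE label, and that of Mt1 at 7 and 6. For Slc39a4 it was above 0 at 3 hours under each label. These are counts of fitted values, most of which did not pass.

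**Figure D5:**
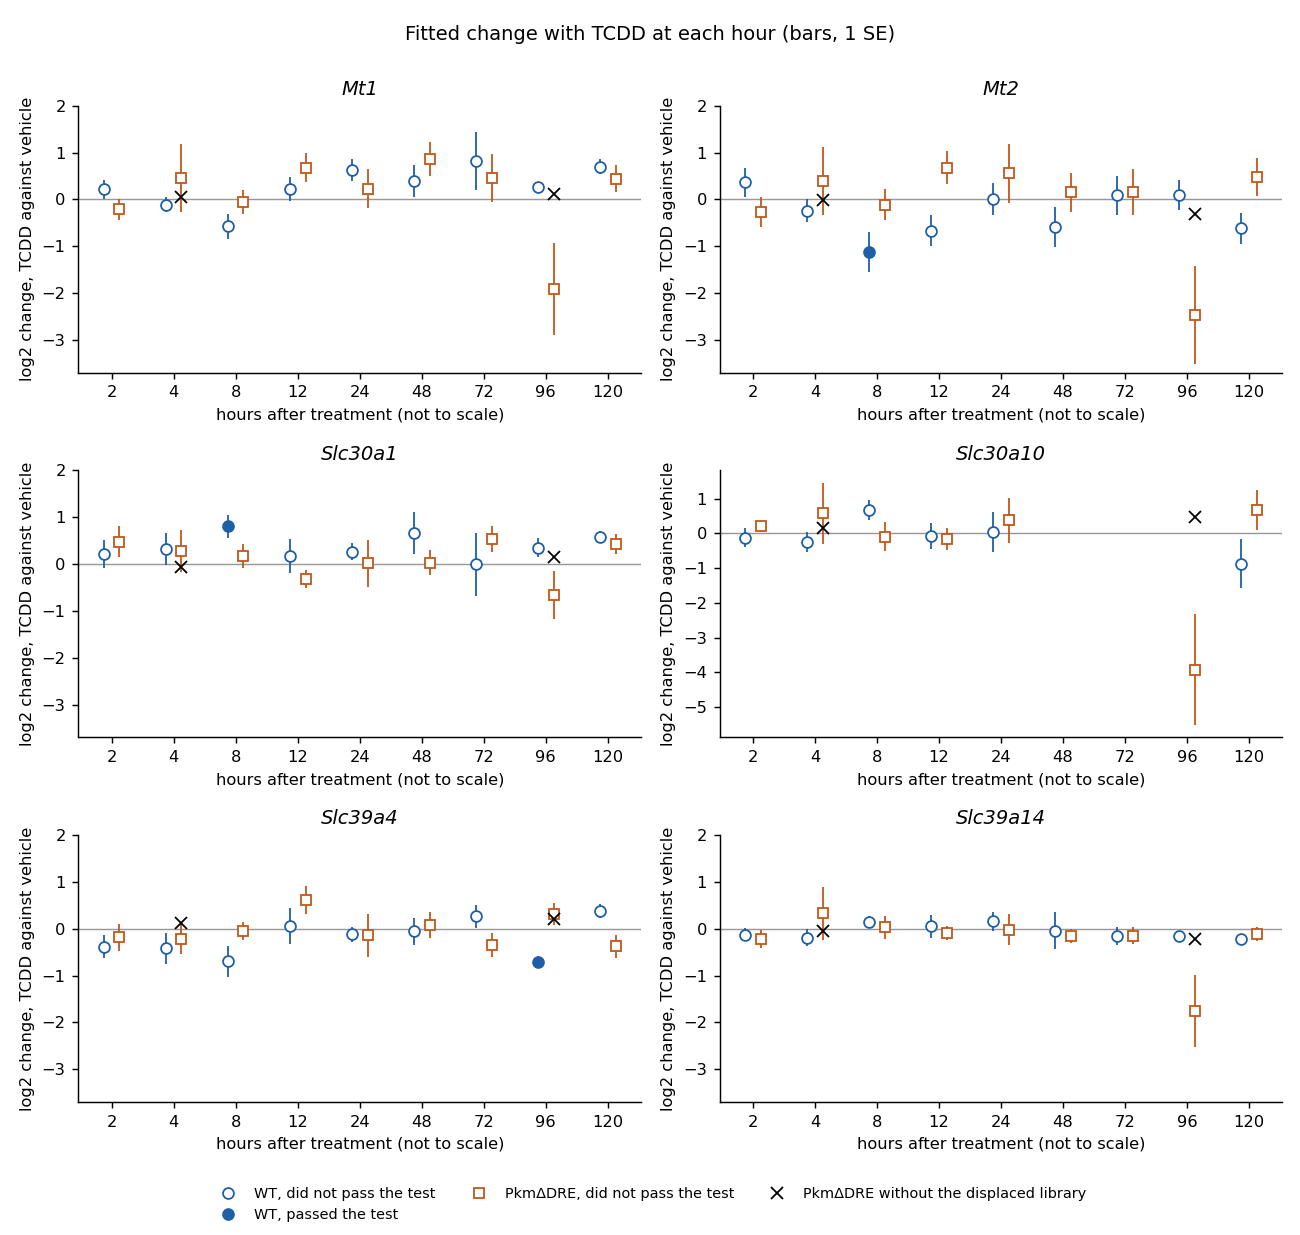
Fitted log2 change (TCDD against vehicle) of each member by hour with bars of ± 1 SE, WT label in blue circles and PkmΔDRE label in orange squares. Filled points passed the test, and black crosses give the PkmΔDRE label at 4 and 96 h without the displaced libraries. The panel of Slc30a10 has its own scale. Filled points are Slc30a1 and Mt2 at 8 h and Slc39a4 at 96 h, all WT label, and at 96 h the PkmΔDRE points of Mt1, Slc30a10 and Slc39a14 lie far below their crosses.

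The response to TCDD was not shown to differ between the labels for any member. The difference in response, PkmΔDRE label minus WT label, was tested as the interaction of label and treatment in an edgeR fit of the 16 libraries of each hour, which are the libraries of the comparisons above. Of 54 tests of members 0 were called by edgeR and 0 by DESeq2, and 7 had an unadjusted p below 0.05. The share of all tested genes called was 0% at 2, 4, 8, 12, 24, 96 and 120 h, 0.00715% at 48 h and 0.00695% at 72 h. Slc39a4 at 96 h had the smallest unadjusted p, with a difference in log2 change of 1.00 (SE 0.26, unadjusted p = 0.00170, adjusted p = 0.253). Without the displaced library it was 0.87 (SE 0.24, adjusted p = 0.0832). Slc30a1 at 8 h had a difference of -0.75 (SE 0.36, unadjusted p = 0.0493, adjusted p = 0.313), and Mt2 in the unstranded count one of 1.34 (SE 0.49, unadjusted p = 0.0138, adjusted p = 0.621) at 12 h. As the strand sum the difference for Mt2 at 12 h was 0.34 (SE 0.36, adjusted p = 0.674), and the unstranded count kept a median of 0.449% of the strand sum in vehicle and 0.241% in TCDD libraries of the WT label, and 0.311% and 0.289% in those of the PkmΔDRE label.

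No member was called between the labels in vehicle libraries. The comparison took the mean of PkmΔDRE minus WT over 2 to 12 h (early) and over 24 to 120 h (late) in the fit of 72 vehicle libraries. Of 12 tests 0 were called by edgeR and 2 had an unadjusted p below 0.05, where 1.37% of all tested genes were called early and 0.742% late. An edgeR unadjusted p below 0.05 was found for 15.1% of all tested genes early and 15% late. DESeq2 called 1, Mt2 early. The label here also stands for different mice, and the labels do not say how isolations were shared, so genotype and isolation cannot be told apart. Mt2 in the unstranded count had a log2 difference of -1.01 (SE 0.30, adjusted p = 0.0622) early and -0.29 (SE 0.28, adjusted p = 0.697) late. Without the displaced libraries both passed, at -0.91 (SE 0.21, adjusted p = 0.0167) and -0.71 (SE 0.20, adjusted p = 0.0461). As the strand sum the differences were -0.12 (SE 0.28, adjusted p = 0.901) and 0.54 (SE 0.25, adjusted p = 0.262), and neither passed. The other members had log2 differences of 0.04 (SE 0.30, adjusted p = 1) early and 0.66 (SE 0.27, adjusted p = 0.235) late for Mt1, and of -0.05 for Slc30a1, 0.59 for Slc30a10, -0.05 for Slc39a4 and 0.26 for Slc39a14 late. These values include the displaced libraries. The one at 96 h held 51.6 CPM of Slc30a10 (the others 0.320 to 0.969) and 1108 CPM of Slc39a14 (123.05 to 152.6).

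Within groups Mt1 and Mt2 deviated together. Over all libraries the deviations from the group mean of log2(CPM + 1) had a Pearson r of 0.784 and a Spearman rho of 0.653 (permutation p = 1e-05, the smallest that 100000 resamples can give, adjusted over 15 pairs 0.00015), and r was 0.675 without the 2 libraries farthest from the median. With the strand sum of Mt2, r was 0.967 and rho 0.932, and without the displaced libraries they were 0.954 and 0.929. Slc30a10 and Slc39a14 had r = 0.753 and rho = 0.366 (permutation p = 5e-05 for r), and r = 0.548 without the 2 farthest libraries. Slc30a1 and Slc39a4 deviated in opposite directions, with r = -0.346, rho = -0.339 (permutation p = 0.00075) and r = -0.329 without the 2 farthest libraries. Among the other pairs, Slc30a10 and Slc39a4 had r = -0.268 and rho = -0.288 (permutation p = 0.00155 for r). Slc30a1 and Slc30a10 had r = 0.504 and rho = 0.362 (permutation p = 0.00046 for r), and Mt1 and Slc39a4 r = 0.212 and rho = 0.406 (permutation p = 5e-05 for rho).

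The genes whose levels over the groups were most like each member's were found by likeness of group means. By Pearson's r of log2(group mean CPM + 1) over the 36 groups, among 9356 genes, the nearest to Mt1 were Mrap (0.979), Asgr2 (0.979), a subunit of the asialoglycoprotein receptor, and Coq8b (0.978). For Mt2 in the unstranded count they were the citrate transporter Slc13a5 (0.969), AW112010 (0.967) and Rarres1 (0.966). For Slc30a10 they were the histidine catabolism enzyme Amdhd1 (0.990), Hsd3b5 (0.989) and serine dehydratase Sds (0.987), and for Slc39a14 the alcohol dehydrogenase Adh4 (0.985), Slc25a15 (0.983) and Slc43a1 (0.983). Slc30a1 was nearest to Naf1 (0.921), Patl1 (0.911) and Vapa (0.909), and Slc39a4 to Gpx4 (0.930), Psap (0.916) and Cnp (0.913). The points share libraries and time in culture, and the values are descriptions.

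Other genes of zinc and copper handling changed mainly at 8 h under the WT label, where 37.4% of all genes were called. Mtf1, the metal-responsive factor, was called higher there with a log2 change of 0.76 (SE 0.14, edgeR adjusted p = 0.00197), and Mt3 and Mt4 were not called in any comparison with TCDD. Of the 8 other SLC30 genes 6 were tested, and Slc30a4 and Slc30a9 were called higher at 8 h (log2 changes 1.51 and 1.14) and at 96 h (0.74 and 0.59) of 92 tests, with 0 lower. Of the 12 other SLC39 genes 11 were tested, with 3 called higher (Slc39a6 1.503, Slc39a10 1.34, Slc39a8 0.97) and 3 lower (Slc39a1 -0.61, Slc39a11 -0.71, Slc39a13 -0.71) of 184 tests, all at 8 h under the WT label. Among 9 copper genes the pump Atp7a (1.68) and the ferroxidase Cp (1.20) were higher, and the chaperones Atox1 (-1.04) and Ccs (-1.004) and the dismutase Sod1 (-0.84) lower, in the same comparison, out of 162 tests. From 2 h to later hours in vehicle libraries the other SLC30 genes had 11 of 48 tests called higher and 5 lower, the other SLC39 genes 13 and 14 of 88, and the copper genes 21 and 24 of 72, where 16.5 to 52.8% of all genes were called per comparison. Of 24 tests of Mt3, Mt4 and Mtf1 6 were lower, all of Mt4, and 0 higher.

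Lists of genes that answer the signals known to act on the metallothioneins were followed beside them. Under the WT label 37.4% of all genes were called at 8 h and 15.1% at 96 h. Of 8 glucocorticoid-responsive genes 3 were called lower in TCDD libraries (Dusp1 at 8 h with a log2 change of -0.59, Tsc22d3 at 8 h with -0.78, and Tat at 96 h with -1.37, WT label) and 0 higher over the 18 comparisons. Of 10 IL-6 and acute phase genes 5 were called lower (Saa2 -1.62, Saa1 -1.49, Lcn2 -1.08 and Hp -1.01 at 8 h, and Hamp -1.88 at 96 h, WT label) and 0 higher, of 180 tests. In vehicle libraries 35 of 64 tests of the glucocorticoid list and 49 of 80 of the acute phase list were lower than at 2 h, with 2 higher in each, where 16.5 to 52.8% of all genes were called in either direction. Of 7 NRF2 targets 11 tests over the 18 comparisons with TCDD were higher and 1 lower (Hmox1 at 96 h, WT label, -1.02), and 8 of the 11 were of Nqo1, which AHR also induces, under both labels. Gclc (1.53), Slc7a11 (1.68) and Txnrd1 (0.77) were the others, all at 8 h under the WT label. In vehicle libraries the NRF2 list had 9 of 56 tests higher than at 2 h and 17 lower. The 5 AHR targets were called higher in 41 of 76 tests with TCDD and lower in 0. Between the labels in vehicle libraries 6 tests of these lists were called, named here after their values were seen. They were Pck1 (log2 difference 1.57), Tat (1.21), Lcn2 (-0.88), Orm2 (-2.58) and the hepatocyte marker Ttr (0.90) late and Commd1 (-0.85), of the copper list, early. In the interaction of label and treatment 0 tests of any of these lists were called by edgeR.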

How the data were processed

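RNA of 36 groups of 4 libraries of primary mouse hepatocytes was sequenced as unstranded read pairs. Per the study's methods and the submitters' processing notes, the authors checked reads with FastQC 0.11.3, trimmed them with Trimmomatic 0.39 and aligned them with STAR 2.7 to GRCm39, and deposited, for each library, whole-number counts of read pairs per gene in 3 columns (without regard to strand, and for each strand). The unstranded count was used, and the sum of the strand columns was an alternative. The deposited files also list 4 lines that name no gene, which held 16.8 to 48.0% of all pairs (median 24.2%) and were left out. A symbol was found for 52083 of 55359 gene IDs.

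Groups came from the sample labels. The tests were edgeR 4.0.16 quasi-likelihood tests (robust, TMM, filterByExpr with a minimum count of 10 and total of 15) in R 4.3.3, with Benjamini-Hochberg adjustment over all genes tested. A call needed an adjusted p below 0.05 and a fold of at least 1.5. CPM used TMM library sizes over all libraries. Fold changes are fitted log2 values with their standard errors. Slc30a10 late in culture and Mt2 in the unstranded count rest on few pairs. Correlations used permutation within groups (100000 resamples, two-sided) in Python 3.11.15 with scipy 1.17.1. The alternatives were RLE scaling, DESeq2 1.42.0, no low-count filter, no fold threshold, adjustment for the share of pairs outside genes, 1 fit per label without or with 1 surrogate variable (sva 3.50.0), each library left out, and, chosen after seeing the data, the strand sum and leaving out the 2 displaced vehicle libraries of the PkmΔDRE label (replicate 4 at 4 h and at 96 h). The test procedure was tested on simulated counts with 200 genes changed by 2 on the log2 scale. With TCDD against vehicle it called 98.4% of the changed genes tested at 96 h (WT label) and 79.1% at 2 h (PkmΔDRE label). It called 60.2% for the difference between labels at 8 h and 51.1% for vehicle 8 h against 2 h (WT label). Unchanged genes called numbered 8, 7, 9 and 4 in turn. Changes of that size can thus be missed.

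All 6 members were named in the text. Of the other lists the genes called in any TCDD comparison were named, at most 5 per list by size of change, and for each member the 3 genes with the highest Pearson's r over group means among genes with a mean of at least 5 CPM, without predicted genes. Exceptions named after their values were seen are the tested markers given beside a result. The members and the lists were chosen with earlier results of these data known. Member positions come from GENCODE M21 on GRCm38 and promoters from RefSeq on GRCm38.p6, while the counts were made on GRCm39, so positions were used only to place the genes. The promoter table held 4 of the 6 members.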

Additional observations from a re-analysis of the deposited data

Results flagged for a closer look

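In 15 of 216 groups of 4 libraries 1 library of a member lay far from the other 3, with a gap above Dixon's 95% critical value for 4 samples. Chance flags about 1 in 20 groups where levels are normally distributed, which was not tested for CPM. The members share libraries, so these groups are not independent. Vehicle replicate 4 of the PkmΔDRE label at 96 h, which stands apart over all genes, gives 4 of the 15. It held 8740 CPM of Mt1 (the others 381.1 to 1331), 20.1 CPM of Mt2 in the unstranded count (0.875 to 2.56), 51.6 CPM of Slc30a10 (0.320 to 0.969) and 1108 CPM of Slc39a14 (123.05 to 152.6).

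Vehicle replicate 3 of the WT label at 72 h held 1483 CPM of Mt1 (the others 296.1 to 490.0), 85.3 CPM of Slc30a1 (15.8 to 18.3) and 2.76 CPM of Slc30a10 (0 to 0.403). Slc30a1 was also far above its group in 3 TCDD libraries labelled WT, at 53.2 CPM in replicate 3 at 8 h (26.99 to 29.2), 54.6 CPM in replicate 1 at 48 h (16.3 to 22.01) and 73.7 CPM in replicate 3 at 72 h (16.2 to 23.5). In all 4 of these groups the library apart was above the others.

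Mt2 in the unstranded count was at 17.96 CPM in TCDD replicate 1 of the WT label at 8 h, against 4.99 to 6.93 CPM in the others, and as the strand sum at 3192 CPM, against 1728 to 2612 CPM. Slc30a10 was at 3.97 CPM in vehicle replicate 3 of the WT label at 48 h, against 0 to 0.482 CPM, and at 1.31 CPM in TCDD replicate 3 of the PkmΔDRE label at 72 h, against 0.220 to 0.267 CPM. Slc39a4 was at 180.3 CPM in vehicle replicate 4 of the PkmΔDRE label at 8 h, against 125.8 to 134.9 CPM, and at 197.3 CPM in TCDD replicate 1 of the PkmΔDRE label at 8 h, against 113.7 to 124.6 CPM. No cause was tested for any of these.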

How the results depend on the processing

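Of members called in TCDD against vehicle there were 3, and the count was 3 to 4 under RLE scaling, DESeq2, no filter, no fold threshold, adjustment for the share of pairs outside genes, the strand sum and without the 2 displaced libraries. It was 5 with 1 fit per label, where of the 3 only Mt2 at 8 h passed, Slc30a1 at 8 h (0.69, edgeR adjusted p = 0.182) and Slc39a4 at 96 h (-0.75, 0.283) did not, and Slc39a4 at 8 h under the WT label and Mt2, Slc30a10 and Slc39a14 at 96 h under the PkmΔDRE label did. With 1 surrogate variable as well it was 4, and none of the 3 passed (Slc30a1 0.48, Mt2 -0.51 and Slc39a4 -0.61), while Mt1, Mt2, Slc30a10 and Slc39a14 at 96 h under the PkmΔDRE label did. It was 1 to 5 when each library was left out. It was 1 without TCDD replicate 3 at 8 h, and 5 without vehicle replicate 3 or 4 at 8 h, vehicle replicate 2 at 120 h or TCDD replicate 3 at 120 h, all of the WT label. Members whose response differed between labels numbered 0 under every alternative, and 0 to 0 with each library left out. Members called over time in vehicle numbered 33, and 32 to 35 under the other settings and 32 to 34 with a library left out (40 fits). Between labels in vehicle the count of 0 became 1 under RLE scaling, DESeq2 and the adjustment, each time Mt2 early, and 2 without the displaced libraries. It was 0 to 1 with a library left out, where 1 came without vehicle replicate 3 of the PkmΔDRE label at 24 h. The cause was not tested.

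Reversed signs were those of Mt2 at 120 h under the WT label (0.72 as the strand sum), of Mt2 between labels late (0.54 as the strand sum), and, without the displaced library, of Slc30a10 (0.48) and Mt1 (0.12) at 96 h under the PkmΔDRE label. With each library of that comparison left out the log2 change ran from -4.32 to 0.48 for Slc30a10 and from -2.27 to 0.12 for Mt1. Mt1 at 120 h under the WT label passed under DESeq2 and with no filter. Mt1 at 24 h against 2 h under the PkmΔDRE label did not pass with the adjustment or with 1 fit per label. Slc30a10 at 8 h against 2 h under that label passed under DESeq2, without the displaced libraries and without vehicle replicate 3 of the WT label at 48 h (adjusted p = 0.0461). Without TMM scaling 64 of 216 group means moved by at least 1 SD and 152 by less. No paired analysis was possible because the labels give no replicate numbers. Depth limits Slc30a10 after 24 h and Mt2 in the unstranded count, where few pairs were counted.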
